A study of Mus musculus with 8 samples.

Results

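The 8 genes described here are markers of amygdala nuclei: Prkcd, Isl1, Dlk1, Zfp521, Otp, Meis2, Rspo2 and Lmo3. They form a list written by gene name, with no value in the rule that chose them. This list and the other gene lists below were nonetheless chosen with earlier results of these data known. The 8 genes were found by gene symbol in both deposited tables. They are 8 of 54532 genes listed in the table of PTS + RS and RS and of 28229 in that of HDAC3 inhibitor and NaCl. They were used to examine which brain region each of 8 RNA-seq libraries resembled, and whether the members differed between the study's groups.

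The amygdala is a group of nuclei in the temporal forebrain that processes threat. Its basolateral nuclei resemble cortex and consist mainly of glutamatergic neurons, its central nucleus and the intercalated cell masses resemble striatum and consist mainly of GABAergic neurons, and its medial nucleus holds neurons of mixed origin, some of them related to hypothalamic neurons. Few genes mark 1 nucleus only, because each of these neuron classes has relatives in striatum, cortex, hypothalamus or olfactory bulb.

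The study asked how restraint stress after stroke changes the brain of C57BL/6 mice, and what an HDAC3 inhibitor does to that response. PTS + RS mice received photothrombotic stroke, a cortical infarct made by light and a dye, followed by daily restraint stress, and RS mice received restraint stress alone. Mice of the HDAC3 inhibitor and NaCl groups had also received PTS + RS. The former were given RGFP109, a class I histone deacetylase inhibitor, subcutaneously at 60 mg/kg once a day for 2 weeks, and the latter are labelled as NaCl treated. All libraries carry the label Day 21, and all 8 are labelled C57BL/6 brain. The PTS + RS and RS groups hold 2 libraries each, all labelled cortex. In the HDAC3 inhibitor and NaCl groups, replicate 1 is labelled cortex and replicate 2 amygdala, so 6 libraries are labelled cortex and 2 amygdala. No source used here says whether a library holds 1 mouse or several, so the p-values below measure only the spread between libraries, which may be technical. An exact permutation test of 2 against 2 libraries cannot go below p = 0.333.

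Each library held between 15902013 and 21712033 reads counted on genes. The CPM values below are read counts brought to a common library size after normalisation by trimmed means (TMM) over the 8 libraries. Genes of different length are compared by the authors' FPKM, which is also divided by the gene length. All 8 members are protein-coding genes with coordinates on GRCm38, given below with the strand and Ensembl identifier. In bulk tissue, fewer cells of a type and less RNA per cell cannot be told apart.

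The tissue labels were first compared with lists of regional marker genes. NaCl replicate 1, labelled cortex, stood apart: 10 olfactory bulb genes summed to 1222 CPM there and to between 13.9 and 19.7 CPM in the 7 other libraries, with all 10 highest in NaCl replicate 1. Cdhr1, a cadherin-related gene of olfactory bulb output neurons and the most abundant of that list, was at 530 CPM there against between 5.66 and 10.1 CPM elsewhere. The other 5 libraries labelled cortex had summed levels of 10 hippocampal genes between 801 and 1157 CPM, against 293 to 302 CPM in the libraries labelled amygdala and 233 CPM in NaCl replicate 1. Prox1, a transcription factor of dentate granule cells, was between 89.4 and 158 CPM in those 5 and between 8.70 and 16.4 CPM in the other 3. Striatal genes, of which 9 of 10 were listed in both tables, summed to between 816 and 849 CPM in the 2 libraries labelled amygdala and between 134 and 157 CPM in all 6 labelled cortex. Pde10a, a phosphodiesterase abundant in striatal neurons, was at 343 and 338 CPM in the libraries labelled amygdala and between 48.7 and 97.5 CPM in the others.

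**Figure D1:**
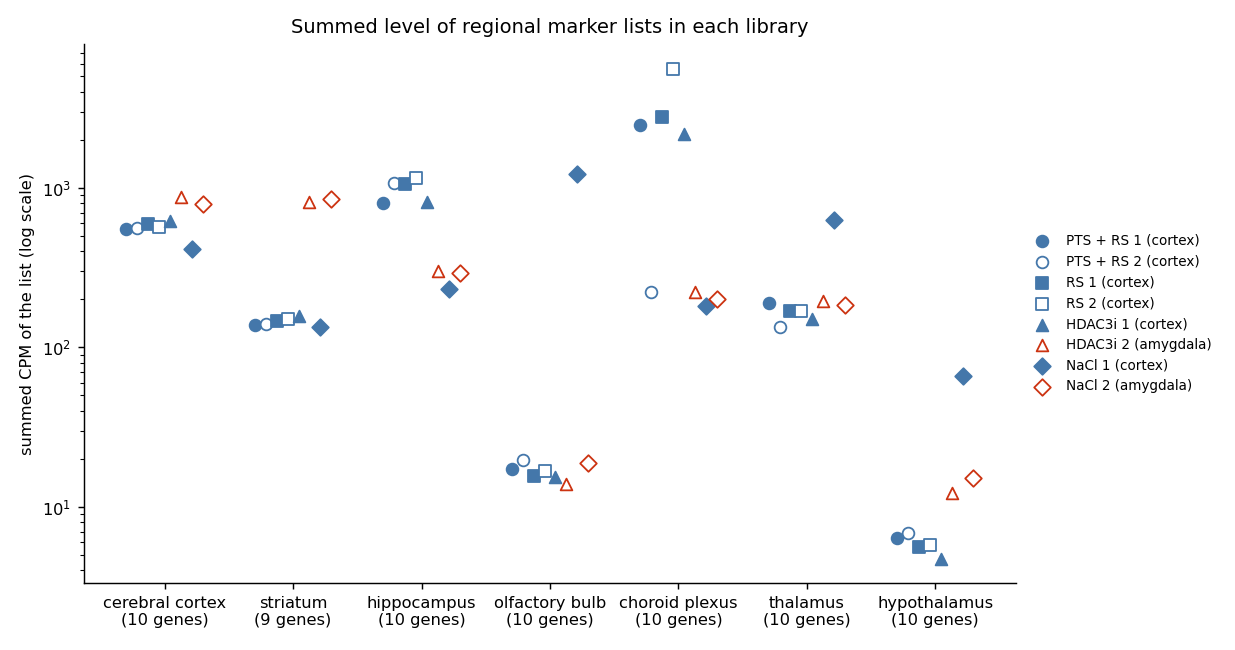
Summed CPM of regional marker lists on a log scale, with 1 point per library. Blue marks the 6 libraries labelled cortex and red the 2 labelled amygdala, filled for replicate 1 and open for replicate 2. NaCl replicate 1 sits at 1222 CPM for olfactory bulb genes, and the libraries labelled amygdala sit at 816 and 849 CPM for striatal genes.

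The remaining lists gave further measured differences. Cerebral cortex genes summed to 796 and 870 CPM in the libraries labelled amygdala, to between 556 and 622 CPM in the 5 libraries labelled cortex other than NaCl replicate 1, and to 413 CPM in NaCl replicate 1. The 10 genes of this list were split. Both libraries labelled amygdala exceeded all 6 others for 5 of them, while those 5 libraries labelled cortex exceeded all 3 others for 3. Choroid plexus genes, led by the transthyretin gene Ttr, summed to between 2184 and 5600 CPM in 4 libraries labelled cortex, but to 221 CPM in PTS + RS replicate 2 and to between 181 and 222 CPM in NaCl replicate 1 and the libraries labelled amygdala. Thalamic genes summed to 629 CPM and hypothalamic genes to 66.2 CPM in NaCl replicate 1, against at most 196 and 15.1 CPM elsewhere. Most of the first sum there came from Calb2 at 353 CPM and Zic1 at 151 CPM, and most of the second from Trh at 62.1 CPM. Of the 10 genes of each list, only 4 thalamic and 2 hypothalamic genes were highest in NaCl replicate 1. Neuronal genes summed to between 6277 and 7831 CPM over the 8 libraries and astrocyte genes to between 3961 and 8032 CPM. Endothelial genes summed to between 354 and 474 and meningeal genes to between 104 and 363 CPM. Oligodendrocyte genes summed to between 3034 and 4897 CPM in the HDAC3 inhibitor and NaCl libraries. In the PTS + RS and RS libraries they summed to between 5453 and 7389 CPM. The labels are therefore used below as names of libraries, not as established regions. The fits by tissue label and of HDAC3 inhibitor against NaCl are also given without NaCl replicate 1. Counting ratios, the fit over all 8 libraries and correlations between genes are given only with it.

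The 8 members differed widely in level and in how far they varied. Per length of gene, Lmo3 was the highest of the 8 in 7 libraries, at between 24.98 and 29.8 FPKM, while in NaCl replicate 1 Meis2 was highest at 51.5 FPKM and Lmo3 second at 25.2 FPKM. Isl1 and Otp were the 2 lowest in every library, at up to 0.698 FPKM for Isl1. The ratio of the highest to the lowest of the 8 libraries in CPM was 1.19 for Lmo3, 1.48 for Zfp521, 3.72 for Prkcd, 8.68 for Dlk1, 14.5 for Meis2 and 20.5 for Rspo2. For the last 3 the extreme library included NaCl replicate 1, which was lowest for Dlk1 and Rspo2 and highest for Meis2. It was also lowest for Prkcd, at 11.02 CPM.

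**Figure D2:**
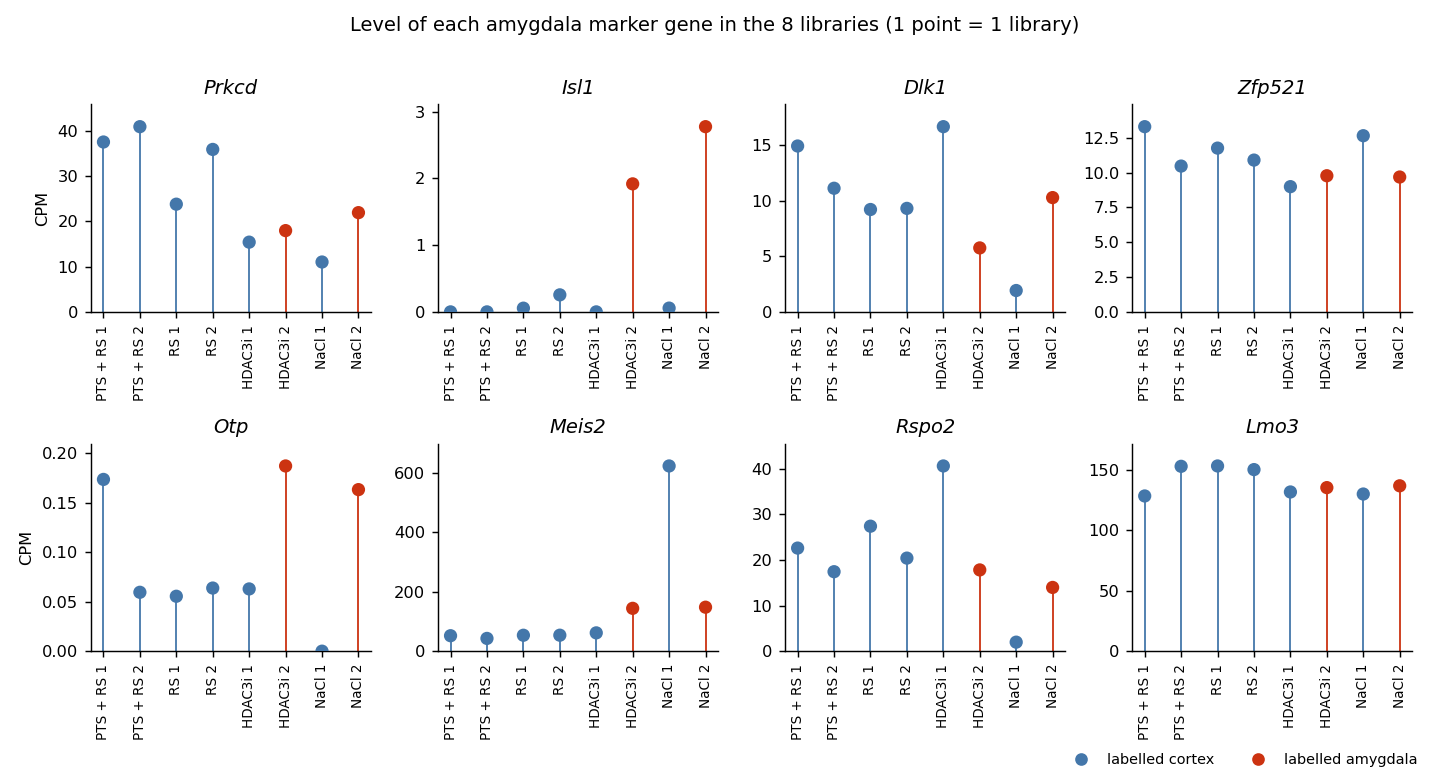
CPM of each member in each of the 8 libraries, on linear axes that start at 0 and differ in scale between genes. Blue marks libraries labelled cortex and red those labelled amygdala. Isl1 is above 1.9 CPM only in red points, Meis2 reaches 623 CPM in NaCl replicate 1, and Lmo3 and Zfp521 are nearly level.

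Among the members that mark the central nucleus, Isl1 separated the labels most sharply. Isl1 (ENSMUSG00000042258, chr13:116298281-116309689, minus strand) encodes a LIM-homeodomain factor of central amygdala neurons that also marks striatonigral neurons. It had 41 and 51 counts in the libraries labelled amygdala, which are 1.92 CPM with HDAC3 inhibitor and 2.78 CPM with NaCl. It had 0 counts in both PTS + RS libraries and in HDAC3 inhibitor replicate 1, 1 count each in RS replicate 1 and NaCl replicate 1, and 4 counts in RS replicate 2. Both libraries labelled amygdala therefore lay above all 6 labelled cortex. The 92 counts labelled amygdala against 6 counts over the 6 libraries labelled cortex give a ratio of 39.1 in CPM, with a 95% interval from 17.3 to 109, which covers counting error only.

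Prkcd (ENSMUSG00000021948, chr14:30595354-30626210, minus strand) encodes protein kinase C delta, which marks a GABAergic class of the lateral central amygdala and is also high in thalamus. Its levels were 37.5 and 40.9 CPM in the PTS + RS libraries, 23.8 and 35.9 CPM in the RS libraries, 15.4 and 18.0 CPM with HDAC3 inhibitor and 11.02 and 21.9 CPM with NaCl. The 2 libraries labelled amygdala, at 18.0 and 21.9 CPM, lay above the 2 libraries labelled cortex of the same table but below all 4 PTS + RS and RS libraries, which are also labelled cortex. Prkcd thus did not single out the libraries labelled amygdala among the 8. This placing rests on a comparison across the deposited tables. All HDAC3 inhibitor and NaCl libraries, at 11.02 to 21.9 CPM, lay below all PTS + RS and RS libraries, at 23.8 to 40.9 CPM. Table and group cannot be told apart in that difference.

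Dlk1 (ENSMUSG00000040856, chr12:109452823-109463336, plus strand) is an imprinted gene for a transmembrane protein related to Notch ligands. It stood at 14.9 and 11.1 CPM in PTS + RS, 9.21 and 9.31 CPM in RS, 16.7 CPM in HDAC3 inhibitor replicate 1 and 1.92 CPM in NaCl replicate 1. The libraries labelled amygdala held 5.75 CPM with HDAC3 inhibitor and 10.3 CPM with NaCl, inside the range of those labelled cortex. NaCl replicate 1 set the lower end of that range. The other libraries labelled cortex ran from 9.21 to 16.7 CPM, and HDAC3 inhibitor replicate 2 lay below them.

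Zfp521 (ENSMUSG00000024420, chr18:13687013-13972733, minus strand) encodes a zinc-finger transcription factor found in striatonigral and related neurons. Its 8 levels ran only from 8.99 to 13.3 CPM. The libraries labelled amygdala, at 9.78 and 9.68 CPM, fell inside the range of those labelled cortex.

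Otp (ENSMUSG00000021685, chr13:94875602-94885130, plus strand) encodes a homeodomain factor of hypothalamic neurons and of neurons of the medial amygdala. It had 14 counts in all 8 libraries together, between 0 and 4 in each. The 2 libraries labelled amygdala shared 7 of them, 0.176 CPM with a 95% counting interval from 0.0708 to 0.363 CPM. This member was therefore at the limit of detection in the libraries labelled amygdala as well, where Sim1, another factor of such neurons, reached at most 0.163 CPM.

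Meis2 (ENSMUSG00000027210, chr2:115863064-116065839, minus strand) encodes a TALE-class homeodomain factor of intercalated and central amygdala, striatum and olfactory bulb interneurons. It was at 52.1 and 43.0 CPM in PTS + RS, 53.6 and 53.8 CPM in RS and 61.6 CPM in HDAC3 inhibitor replicate 1. The libraries labelled amygdala had 144 and 148 CPM, above those 5, and NaCl replicate 1 had 623 CPM, above every other library. The level thus placed the libraries into 3 sets that did not overlap, with the label cortex on both sides of the label amygdala.

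The basolateral members showed neither of these patterns. Rspo2 (ENSMUSG00000051920, chr15:43020794-43170826, minus strand) encodes R-spondin 2, a secreted enhancer of Wnt signalling expressed by basolateral pyramidal neurons. It was at 22.6 and 17.4 CPM in PTS + RS, 27.4 and 20.4 CPM in RS, 40.6 CPM in HDAC3 inhibitor replicate 1 and 1.98 CPM in NaCl replicate 1. The libraries labelled amygdala, at 17.8 CPM with HDAC3 inhibitor and 13.98 CPM with NaCl, were within the range of those labelled cortex. NaCl replicate 1 set the lower end of that range. The other libraries labelled cortex ran from 17.4 to 40.6 CPM, and NaCl replicate 2 lay below them.

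Lmo3 (ENSMUSG00000030226, chr6:138362918-138581968, minus strand) encodes a LIM-only transcriptional cofactor of basolateral amygdala and of cortex. It had 128 and 153 CPM in PTS + RS, 153 and 150 CPM in RS, 132 and 135 CPM with HDAC3 inhibitor and 130 and 137 CPM with NaCl. The libraries labelled amygdala lay inside the range of those labelled cortex, as for Rspo2, Dlk1, Zfp521 and Prkcd. For Rspo2 and Dlk1 this held only with NaCl replicate 1 in that range. Isl1 was the only member for which both libraries labelled amygdala exceeded all 6 labelled cortex.

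The tissue labels were then compared within the HDAC3 inhibitor and NaCl table, 2 libraries of each label with treatment as a covariate, by the quasi-likelihood test of edgeR with Benjamini-Hochberg adjustment over 17565 genes. A gene was called when its adjusted p was below 0.05 and its fold change reached 1 on the log2 scale, in either direction. None of the 7 members tested was called, against a background of 0% of all genes, and Otp had too few counts to be tested. At an unadjusted p under 0.05 the test gave 1607 of the 17565 genes. DESeq2 called 156 genes higher and 53 lower, while limma-voom called 0.

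Isl1 had the largest log2 fold change of the members, 6.05 ± 0.85 (standard error), at an adjusted p of 0.311 by edgeR. In counts this is 92 against 1, a ratio of 77.7 in CPM with a 95% counting interval from 13.6 to 3104. The call depended on the tool, as DESeq2 gave 6.36 at an adjusted p of 0.0231. Prkcd was at 19.9 ± 2.80 CPM (SD, n = 2) in the libraries labelled amygdala and 13.2 ± 3.10 CPM (n = 2) in those labelled cortex, a log2 fold change of 0.59 ± 0.29 with an adjusted p of 0.64 by edgeR. The values for Rspo2, Dlk1, Lmo3, Zfp521 and Meis2 were 0.64, 0.33, 0.04, −0.15 and −0.44, at adjusted p of at least 0.926. For Prkcd, Isl1 and Lmo3, 3 of the 7, both libraries labelled amygdala exceeded both labelled cortex, which held for 21.6% of all tested genes, and no member had both below, against 22.4% of genes. The median over the 7 members was 0.33, and the median over all genes tested was −0.01.

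With 1 library labelled cortex left out, the treatment covariate had to be dropped as well, since 3 libraries leave no residual degree of freedom for both terms. Dropping the covariate alone, with all 4 libraries, called 0 genes and gave log2 fold changes of −1.24 for Meis2, −0.43 for Rspo2, −0.22 for Dlk1 and 6.00 for Isl1. Calls and, for some members, the direction then differed with the library left out. Without NaCl replicate 1, which carried the olfactory bulb genes, 4 members were called, against 6.13% of 18613 genes. Isl1 and Meis2 were then higher in the libraries labelled amygdala, and Rspo2 and Dlk1 lower. Without HDAC3 inhibitor replicate 1 the test called the same 4 members, against 13.4% of 18744 genes. In that fit Isl1, Rspo2 and Dlk1 were higher and Meis2 lower. Each of these fits rests on a single library labelled cortex, which was assumed to vary as the pair labelled amygdala did.

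For Meis2 the log2 fold change was 1.24 ± 0.15 without NaCl replicate 1 (edgeR, adjusted p = 2.11e-08) and −2.10 ± 0.12 without HDAC3 inhibitor replicate 1 (adjusted p = 8.08e-26). For Rspo2 it was −1.35 ± 0.17 and 3.0 ± 0.28 in the same order, and for Dlk1 −1.06 ± 0.24 and 2.05 ± 0.33. With all 4 libraries, the values of these 3 genes were fitted over 2 libraries labelled cortex that lay on opposite sides of the pair labelled amygdala.

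Isl1 alone among the members was called higher against either library labelled cortex. Against NaCl replicate 1 the log2 fold change was 5.21 ± 0.89 (edgeR, adjusted p = 1.31e-06). Against HDAC3 inhibitor replicate 1, which had 0 counts, Isl1 was at least 12.4-fold higher when that library is set at 3 counts, or 0.189 CPM. Prkcd did not reach the fold threshold in either fit, at 0.37 ± 0.20 without NaCl replicate 1 and 0.85 ± 0.21 without HDAC3 inhibitor replicate 1. Zfp521 and Lmo3 were not called in either, with the values of Lmo3 at 0.05 and 0.06.

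**Figure D3:**
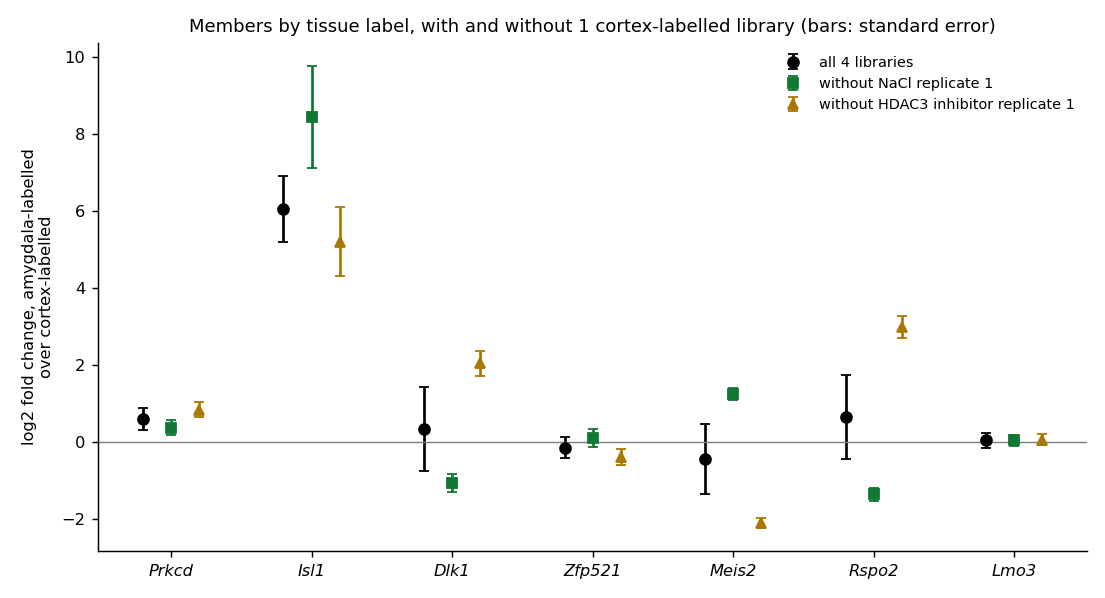
log2 fold change of the libraries labelled amygdala over those labelled cortex, with standard error bars, for the 7 tested members and 3 choices of libraries, with a treatment covariate only in the fit of all 4. Meis2, Rspo2 and Dlk1 change sign with the cortex-labelled library left out, while Isl1 stays above 5. The Isl1 value without NaCl replicate 1 is set against a library with 0 counts and depends on the fit's prior count.

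Other genes known from the same nuclei were examined as lists. With all 4 libraries, 0 of 9 central, 0 of 5 intercalated, 0 of 5 tested medial and 0 of 8 basolateral genes were called by edgeR, against the same background of 0%. Their median log2 fold changes were 1.13, 1.78, 0.21 and −0.09. Without NaCl replicate 1, 6 of 9 central genes were called higher and 0 lower, as were 3 and 0 of 5 intercalated genes, 1 and 1 of 5 medial genes and 2 and 1 of 8 basolateral genes, against 6.13% of all genes in that fit. Without HDAC3 inhibitor replicate 1 the counts were 3 higher and 0 lower, 2 and 2, 2 and 1 of 7 tested, and 3 and 0, in the same order, against 13.4% of all genes.

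Among the central genes, Penk, the enkephalin precursor and the most abundant of the list, stood at 213 and 224 CPM in the libraries labelled amygdala, at between 11.4 and 16.2 CPM in 5 labelled cortex and at 127 CPM in NaCl replicate 1. Tac1, the substance P precursor, was at 39.1 and 44.0 CPM in the libraries labelled amygdala and between 6.36 and 9.43 CPM in all 6 labelled cortex. Of the 9 central genes, both libraries labelled amygdala exceeded all 6 others for 6. For 2, Nts and Calcrl, the 5 libraries labelled cortex other than NaCl replicate 1 exceeded all 3 others. Nts had 3.09 and 4.24 CPM in the libraries labelled amygdala, and Calcrl 6.36 and 4.73 CPM. Crh was highest in NaCl replicate 1, at 10.06 CPM, against 5.10 and 7.56 CPM in the libraries labelled amygdala. Tac1, Six3 and Gpr6 were called higher against either library labelled cortex alone. Penk, Tac1, Six3 and Gpr6 are also expressed by striatal neurons, and of the striatal list 8 of 9 genes were called higher without NaCl replicate 1 and 7 of 9 without HDAC3 inhibitor replicate 1.

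The intercalated genes split in NaCl replicate 1. Tshz1, a zinc-finger factor of intercalated cells and the most abundant of the list, reached 337 CPM in NaCl replicate 1, against 39.7 and 36.1 CPM in the libraries labelled amygdala and at most 30.0 CPM in the other 5. Drd1, the dopamine D1 receptor gene, was at 49.2 and 49.0 CPM in the libraries labelled amygdala, at 4.24 CPM in NaCl replicate 1 and at most 6.60 CPM in the other 5. The striatal list was likewise higher in the libraries labelled amygdala, at 816 and 849 CPM against 134 to 157 CPM in those labelled cortex. Tshz1 and Pax6 followed Meis2 in being called lower in the libraries labelled amygdala than in NaCl replicate 1, at −3.16 ± 0.14 and −2.82 ± 0.17.

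Of the 9 medial genes, Lhx5, Sim1, Ucn3 and Gal were not tested in the 4-library fit for low counts. Nr2f2, a nuclear receptor and the most abundant of the list, had 28.3 and 25.03 CPM in the libraries labelled amygdala, below the 6 labelled cortex, which ran from 28.8 to 52.5 CPM. Lhx9, a LIM-homeodomain factor, had 0.561 and 1.36 CPM there, against between 14.4 and 21.2 CPM in 5 libraries labelled cortex and 0.678 CPM in NaCl replicate 1. Ecel1, an endopeptidase-related gene, went the other way, at 18.2 and 22.7 CPM in the libraries labelled amygdala and between 1.53 and 6.77 CPM in the 6 labelled cortex, with a log2 fold change of 2.76 ± 0.59 in the fit of 4 libraries and an edgeR adjusted p of 0.393.

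Among basolateral genes, Ppp1r1b, which encodes DARPP-32 and is also abundant in striatum, was at 299 and 388 CPM in the libraries labelled amygdala and between 31.1 and 67.0 CPM in those labelled cortex. In the fit of 4 libraries 3 of the 8 genes had a positive and 5 a negative log2 fold change. Sema5a, a semaphorin gene, was at 43.5 and 39.2 CPM in the libraries labelled amygdala and between 74.3 and 156 CPM in the 6 labelled cortex (log2 fold change −0.93), and Etv1, an ETS-family factor, was at 94.3 and 78.0 CPM against between 119 and 163 CPM (−0.77), neither of them called. Cplx1, the complexin 1 gene and the most abundant of the list, ran from 424 to 540 CPM in the 7 libraries other than NaCl replicate 1, where it was 827 CPM.

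**Figure D4:**
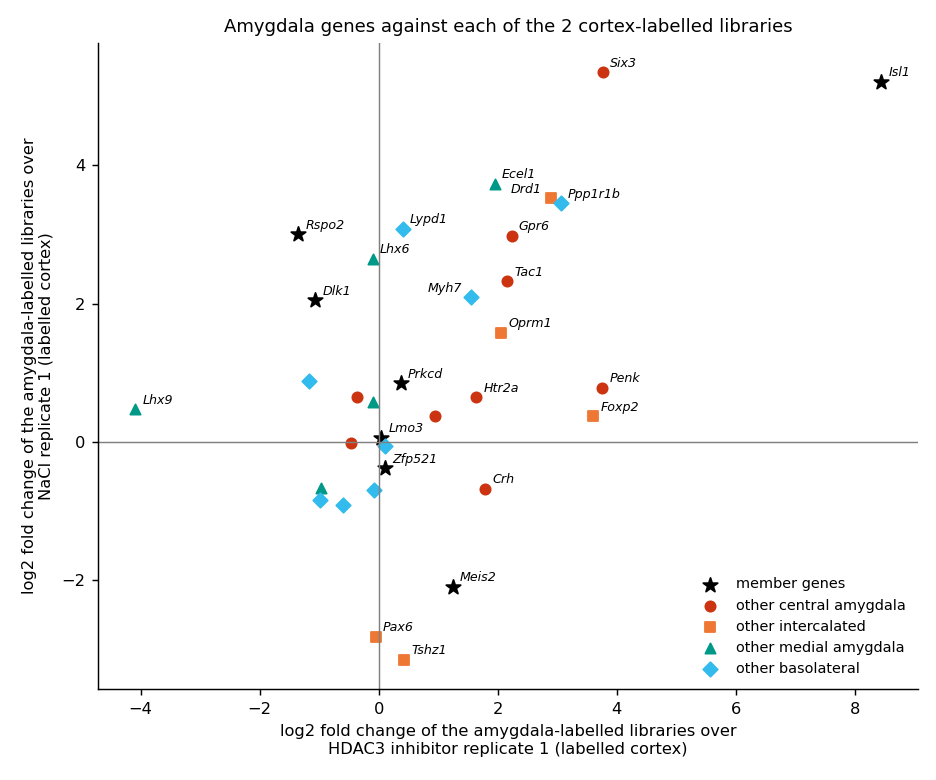
log2 fold change of the pair labelled amygdala over HDAC3 inhibitor replicate 1 (horizontal) and over NaCl replicate 1 (vertical) for members and other amygdala genes tested in both fits, each point 1 gene. Isl1, Six3, Drd1 and Ppp1r1b are positive on both axes (the horizontal value of Isl1 depends on the prior count), Meis2 lies at 1.24 and −2.10, and Rspo2 at −1.35 and 3.0.

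The second comparison set PTS + RS against RS, 2 libraries each, and addresses what stroke adds to restraint stress. None of the 6 members tested was called by edgeR, against a background of 2.21% of 17581 genes, and Isl1 and Otp had too few counts to be tested. Over all genes 3139 had an unadjusted p under 0.05, and 373 genes (2.12%) were called higher and 16 (0.091%) lower. DESeq2 called 406 higher and 35 lower and limma-voom 315 and 11, and neither called a member.

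Dlk1 had the largest difference of the members, at 13.0 ± 2.69 CPM (SD, n = 2) in PTS + RS and 9.26 ± 0.07 CPM (n = 2) in RS, a log2 fold change of 0.52 ± 0.19 with an edgeR adjusted p of 0.217. Prkcd was at 39.2 ± 2.399 CPM in PTS + RS and 29.9 ± 8.56 CPM in RS, a log2 fold change of 0.42 ± 0.18 with an adjusted p of 0.29. Leaving out 1 library at a time moved Prkcd between 0.15, without RS replicate 1, and 0.73, without RS replicate 2. Dlk1 moved between 0.28, without PTS + RS replicate 1, and 0.71, without PTS + RS replicate 2, where its edgeR adjusted p was 0.0164 but the fold stayed below the threshold. Rspo2, Meis2, Zfp521 and Lmo3 had log2 fold changes of −0.24, −0.15, 0.09 and −0.09, at adjusted p between 0.527 and 0.841. Both PTS + RS libraries exceeded both RS libraries for Prkcd and Dlk1, 2 of 6 members against 25.7% of genes, and both lay below for Meis2, 1 of 6 against 24.5%. The median log2 fold change was 0.0018 over the 6 members and −0.0015 over all genes.

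Markers of other cell types moved between the same groups. The 10 microglial genes summed to 1374 and 1171 CPM in PTS + RS and to 322 and 294 CPM in RS, and all 10 were called higher. Mice of the HDAC3 inhibitor and NaCl groups had also received PTS + RS. There the same genes summed to 374 and 555 CPM in HDAC3 inhibitor replicates 1 and 2. The sums were 294 and 630 CPM in NaCl replicates 1 and 2. Table, tissue label and treatment cannot be told apart in this difference. Choroid plexus genes were at 2493 and 221 CPM in PTS + RS and 2765 and 5600 CPM in RS. All 10 had a negative log2 fold change, but 0 were called, and the 2 libraries of each group differed widely. The part of these cells in the values of Prkcd and Dlk1 was not tested.

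The third comparison set HDAC3 inhibitor against NaCl in the same 4 libraries that gave the comparison of labels, so both describe the same data. None of the 7 members tested was called by edgeR, against a background of 0% of 17565 genes, and 206 genes had an unadjusted p under 0.05. DESeq2 and limma-voom also called 0 genes. The log2 fold changes were 1.88 ± 0.95 for Rspo2, 0.88 ± 0.91 for Dlk1, 0.02 ± 0.37 for Prkcd, 0.00 ± 0.16 for Lmo3, −0.25 ± 0.26 for Zfp521, −0.52 ± 1.90 for Isl1 and −1.91 ± 0.80 for Meis2, all at an adjusted p of 1. Rspo2 was higher and Meis2 lower in both HDAC3 inhibitor libraries than in both NaCl libraries, 1 of 7 members in each direction against 12.8% and 13.8% of genes. Without NaCl replicate 1 the log2 fold change of Rspo2 was 1.06 ± 0.55, that of Meis2 −0.52 ± 0.51 and that of Dlk1 0.12 ± 0.67. In that fit the NaCl group is 1 library labelled amygdala, while the HDAC3 inhibitor group holds 1 library of each label. The fit has no term for the label, so these values mix label and treatment.

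The 2 pairs within this comparison gave different values. Between the libraries labelled cortex, the log2 ratio of HDAC3 inhibitor over NaCl was 4.28 for Rspo2, 3.04 for Dlk1 and −3.34 for Meis2. Between those labelled amygdala the ratios were 0.35, −0.83 and −0.04. These are ratios of 1 library to 1 library and have no replicate check.

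The difference between the 2 pairs was also fitted over all 8 libraries, with the spread taken from the PTS + RS and RS pairs. This fit was added after the ratios above had been seen and restates them, since each of its 4 arms is 1 library. It compares those 4 libraries and does not test the response to treatment. In it 3 of 7 members passed the threshold, as did 4.96% of 19602 genes. The log2 difference, cortex-labelled minus amygdala-labelled, was 4.01 ± 0.43 for Rspo2, 3.95 ± 0.42 for Dlk1 and −3.30 ± 0.20 for Meis2. Prkcd, Lmo3, Zfp521 and Isl1 did not pass. Treatment, tissue of that library and the library itself cannot be told apart in the replicate 1 pair.

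**Figure D5:**
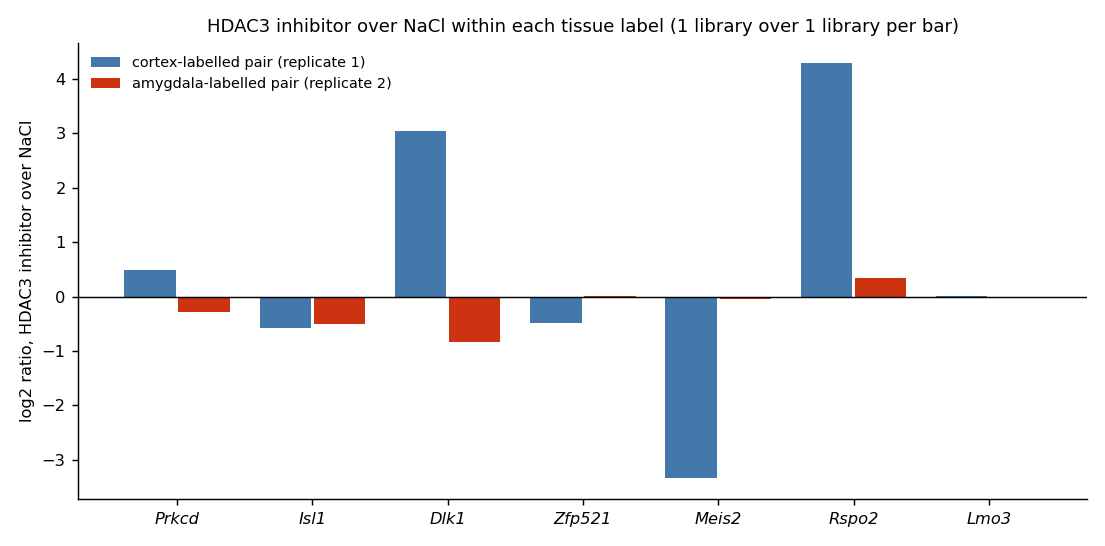
log2 ratio of HDAC3 inhibitor over NaCl for the 7 tested members, as bars from 0, blue for the pair labelled cortex and red for the pair labelled amygdala. Each bar is 1 library over 1 library. Rspo2 and Dlk1 at 4.28 and 3.04 and Meis2 at −3.34 stand out in the pair labelled cortex, while the pair labelled amygdala stays between −0.83 and 0.35.

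Finally, for each member with at least 10 counts in a library, the 2 genes most alike in log2 CPM over the 8 libraries were found among 19595 genes by Pearson's r. With 8 points that share depth and source, and so many genes searched, these are descriptions. For Isl1 they were Homer1, a postsynaptic scaffold gene, and Ppp1r1b, at r of 0.991 and 0.985. Homer1 was at 308 and 328 CPM in the libraries labelled amygdala and between 104 and 138 CPM in those labelled cortex. For Meis2 they were Rubcn and Chrm2, at 0.998 and 0.996, with Chrm2, a muscarinic receptor gene, at 74.0 CPM in NaCl replicate 1, 18.9 and 17.4 CPM in the libraries labelled amygdala and at most 8.43 CPM elsewhere. Rspo2 was most like Cadm1 and Rab3c, at 0.996 and 0.993, both lowest in NaCl replicate 1.

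The genes nearest to the other members varied little or were low. Dlk1 was nearest to Manba and Naaa, at 0.979 and 0.974, and Prkcd to Adgb and Pou2f3, at 0.973 and 0.970. Zfp521 was nearest to Hist1h2ac and 3222401L13Rik, at 0.981 and 0.967, and Lmo3 to Stx6 and Gpr62, at 0.944 and 0.942.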

How the data were processed

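Total RNA of 8 mouse brain libraries was sequenced. The authors' methods name STAR for alignment to GRCm38 and HTSeq for counting over genes (versions 2.4.0 and 0.6.1 in the submitters' processing notes too). The deposited counts are whole numbers per gene and library without normalisation, and the deposited FPKM were computed by the authors from them and the gene length. The labels and the methods name different library kits, so strand was treated as unknown. The authors also deposited fold changes, p-values and adjusted p-values of their own comparisons and 8 per-library columns of normalised signal, none of which were used.

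The second table lists 28229 genes without identifiers, which were matched by position to the 54532 of the first, all with the same symbol. Genes of the first table that the second does not list were treated as having no counts in its libraries. Coordinates are those deposited, and 7 of the 8 members have the same ones in GENCODE M21. The FPKM were used only for levels between genes. Genes were filtered with filterByExpr (minimum count 10), normalised by TMM and tested with the quasi-likelihood test of edgeR 4.0.16 in R 4.3.3, with Benjamini-Hochberg adjustment over all tested genes. Single-library ratios used a prior count of 2, and bounds a floor of 3 counts. Alternatives used DESeq2 1.42.0, limma 3.58.1, DESeq2 size factors, no filter, a replicate block, other sets of libraries and, for levels, CPM without TMM or FPKM. The fits were tested on simulated data. Python 3.11.15 with pandas 2.3.3, scipy 1.17.1 and matplotlib 3.10.9 was used for levels and figures.

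The members and lists were chosen with earlier results of these data known. Genes named are the 8 members, other amygdala genes called by tissue label (up to 6 a direction), the most abundant gene of each list, and the 2 genes most like each member. As no other amygdala gene was called with all 4 libraries, Tac1, Six3, Gpr6, Nts, Calcrl, Crh, Drd1, Pax6, Lhx9, Ppp1r1b, Prox1, Zic1, Ecel1, Sema5a, Etv1, Sim1, Lhx5, Ucn3 and Gal were named after their values were seen. The other lists, with the most abundant gene of each, were meninges (Dcn), neurons (Snap25), astrocytes (Slc1a2), oligodendrocytes (Mbp), endothelial cells (Slc2a1), microglia (Csf1r), thalamus (Calb2), hypothalamus (Trh), cerebral cortex (Rasgrf2) and hippocampus (Zbtb20). Same-numbered libraries did not deviate together in PTS + RS and RS (correlation 0.0354), so the numbers were not taken as pairs there. In the other table the number equals the tissue label (correlation 0.299). The main fit of HDAC3 inhibitor against NaCl has no term for it, so its spread includes the difference between labels. With the replicate block the standard error fell for Isl1 (0.677 against 1.90) and Prkcd (0.285 against 0.371) and rose for the other members tested.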

Additional observations from a re-analysis of the deposited data

Results flagged for a closer look

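Among the 6 libraries labelled cortex, 3 members had 1 library far from the other 5. Meis2 was at 623 CPM in NaCl replicate 1, and the gap to the next library was 0.968 of the whole range. Isl1 was at 0.255 CPM in RS replicate 2, which is 4 counts, and Otp at 0.174 CPM in PTS + RS replicate 1, which is 3 counts, with gaps of 0.779 and 0.633 of the range. The cutoff for this flag is a gap that normally distributed values exceed by chance in about 1 in 20 groups. It is the rate at the cutoff and not that of the gaps given above, and 8 members were examined in this way. That rate need not hold for counts as low as those of Isl1 and Otp.

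For 3 members, the ratio of HDAC3 inhibitor over NaCl in the pair labelled cortex differed from that in the pair labelled amygdala, each ratio being 1 library over 1 library. The log2 difference, cortex-labelled minus amygdala-labelled, was 4.01 for Rspo2, 3.95 for Dlk1 and −3.30 for Meis2. The fit behind these values was added after the ratios had been seen, and it compares 4 single libraries. NaCl replicate 1, whose olfactory bulb genes summed to 1222 CPM, is 1 of the 2 libraries of the pair labelled cortex, and its part in these differences cannot be told apart from that of the treatment.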

How the results depend on the processing

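By tissue label, 0 genes were called with all 4 libraries. Without the filter on low counts 187 were called higher and 53 lower, with DESeq2 156 and 53, and with all 8 libraries in 1 fit 171 and 41. Isl1 was the 1 member called without the filter and with DESeq2. Leaving out 1 library at a time gave 0 to 1396 genes higher, 0 to 1116 lower and 0 to 4 members called. Dlk1 turned to −0.027 with limma-voom and −0.22 without the treatment term, where Rspo2 turned to −0.43. With 1 library and the treatment term left out, Dlk1 ran from −1.06 to 2.05, Rspo2 from −1.35 to 3.0, Meis2 from −2.10 to 1.24 and Zfp521 from −0.38 to 0.11.

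For PTS + RS against RS, genes called were 604 higher and 155 lower without the filter and 35 lower with DESeq2. Leaving out 1 library gave 308 to 626 higher and 15 to 192 lower, while Zfp521 ran from −0.10 to 0.25 and Lmo3 from −0.22 to 0.030. With the replicate block 443 genes were called higher and 32 lower, and 0 members. For HDAC3 inhibitor against NaCl the replicate block called 0 genes, as without it. Leaving out 1 library there gave 0 to 15 higher and 0 to 78 lower, with Dlk1 from −0.087 to 2.54, Isl1 from −7.62 to 3.98, Prkcd from −0.39 to 0.60 and Lmo3 from −0.036 to 0.043. Rspo2 ran from 1.06 to 3.88 and Meis2 from −2.64 to −0.52. Each of these fits leaves 1 group with 1 library of a single label and has no term for the label, so label and treatment are mixed. The difference between the 2 pairs, between single libraries, passed the threshold for 972 genes, 1760 without the filter and 575 to 2051 with 1 PTS + RS or RS library left out, and for the same 3 members each time. The cause of these changes was not tested beyond the levels given for each library. Depth limits Isl1 and Otp, which had few or no counts in the libraries labelled cortex.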
